A study of Arabidopsis thaliana with 2 samples.

Results

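AT3G16660 and AT3G16670 are neighbouring Arabidopsis thaliana genes of the pollen Ole e 1 protein family, and both had a higher signal in a ros1-1 seedling array than in a C24 wild-type array. They are 2 of 13286 genes with a probe set of their own in the annotation used here, and were chosen by their signals on these 2 arrays, on which both were at least 2-fold higher in ros1-1. Their ratios are therefore a description and carry no test. Each gene was measured by 1 probe set, 258418_at for AT3G16660 and 258419_at for AT3G16670, and neither probe set was assigned to any other gene. Membership of the family is background knowledge: the gene table used here holds locus codes and no protein descriptions, so it could not be checked in these data.

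The series compared total RNA of ros1-1, a mutant in the C24 background, with that of the C24 wild type, each on 1 Affymetrix 3′ expression array. Seedlings of both genotypes were 15 days old and had grown on MS medium at 22 °C with 16 h of light and 8 h of darkness, and no further treatment is given. The number of seedlings behind each array is not given, ros1-1 is the only mutant allele used, and with no replicates every difference below describes these 2 arrays. The comparison asks which transcripts differ when ROS1 is impaired, and ROS1 itself was not analysed here.

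ROS1 is a DNA glycosylase that cuts 5-methylcytosine out of DNA, so that an unmethylated cytosine can be put in its place. Its loss is known to let DNA methylation build up at many loci. The Ole e 1 family takes its name from the major pollen allergen of the olive tree. Its members share a cysteine-containing domain and are in most cases predicted to be secreted, and some belong to the proline-rich and arabinogalactan proteins of the cell wall. Despite the family's name, members are also expressed outside pollen, among them the root hair wall protein PRP3. No specific function is assigned here to AT3G16660 or AT3G16670.

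The values are linear MAS5 signals, the probe set intensities summarised by Affymetrix's algorithm, on a scale shared by both arrays. The median signal over 22746 probe sets was 213 on the ros1-1 array and 216 on the wild-type array. A floor was set at a signal of 132, the 40th percentile of both arrays, and 14126 probe sets reached it on at least 1 array and are called measured. On each array a probe set's brightness also depends on its probe sequences, so ranks below place a signal on its array and do not order transcripts by abundance. Spiked control transcripts, read by 18 probe sets, had log2 ratios between -0.25 and 0.26 with a median of -0.02.

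AT3G16670 had a signal of 4142 in ros1-1 and 1399 in the C24 wild type, a difference of 2743 units. The ros1-1 signal was thus 2.96-fold the wild-type signal, a log2 ratio of 1.57. Both signals lay far above the floor, at 31.4 times and 10.6 times its value in ros1-1 and wild type. The probe set ranked 660th from the brightest on the ros1-1 array and 2424th on the wild-type array. In percentiles of all probe sets, these places were 97.1 in ros1-1 and 89.3 in wild type. Whole seedlings were sampled, so a change in the share of a cell type cannot be told apart from a change in RNA per cell.

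AT3G16660 had a signal of 681 in ros1-1 and 245 in the C24 wild type, a difference of 436 units. Its ros1-1 signal was 2.78-fold the wild-type signal, a log2 ratio of 1.47. The probe set ranked 5039th from the brightest in ros1-1 and 10680th in wild type, at percentiles 77.8 and 53.0. It therefore stood higher up on the ros1-1 array and close to the middle of the wild-type array. A shift of at least its 24.8 percentile points upward was shown by 5 of the 14126 measured probe sets, itself included. For AT3G16670 the shift was 7.76 points, which 530 measured probe sets reached, since a probe set already near the top of the array has little room to climb. The wild-type signal of AT3G16660 was 1.86 times the floor, against 5.15 times in ros1-1, so its ratio rests on a dimmer reading than that of AT3G16670.

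The log2 ratio of AT3G16670 exceeded that of AT3G16660 by 0.09. Both genes were chosen for a high ratio, so a small difference between them was largely fixed by the choice and nothing is read from it. Whether either probe set takes signal from the transcript of the other gene was not tested, so the 2 values may not be separate readings of 2 genes. As a measure of error on these arrays, 61 other genes had more than 1 probe set that reached the floor on each array, and the log2 ratios within a gene had an SD of 0.19. This scatter leaves out differences between plants, RNA preparations and labelling reactions, which were not measured.

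Of all 14126 measured probe sets, 0.205% had a ros1-1 signal at least 2-fold the wild-type signal, 29 in number, and 0.241%, or 34, were lower by as much. Raising signals under the floor to it shrinks ratios, so a place in the order of ratios depends on the floor. With the floor used here, AT3G16670 had the second and AT3G16660 the fourth highest ratio of all. They were first and second among the 7521 measured probe sets with a single named gene. The next gene below them was AT4G36700, a cupin-domain protein gene, with signals of 1807 in ros1-1 and 652 in wild type and a log2 ratio of 1.47. At the 2-fold limit, APL3, a subunit of the starch synthesis enzyme ADP-glucose pyrophosphorylase, lay just inside with a log2 ratio of 1.01. AT1G19200 lay just outside it, with a bound of 1.00 from signals of 264 in ros1-1 and 89.3 in wild type, the second of which is under the floor.

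Probe sets of similar brightness mostly had much smaller ratios. Brightness was the mean of the log2 signals on the 2 arrays, given here back in linear units. The 500 probe sets nearest to AT3G16670, between 2039 and 2841, had log2 ratios with an SD of 0.22. Their lowest value was -0.94 and their highest 1.04. Of these 500, 482 differed by under 0.5 on the log2 scale and 1 was at least 2-fold higher. The 500 nearest to AT3G16660, between 392 and 426, had an SD of 0.28 and ran from -1.63 to 1.33, with 464 under 0.5 in size and 1 at least 2-fold higher. That 1 was AT3G05400, a sugar transporter-like gene with signals of 671 in ros1-1 and 268 in wild type. Each member of the pair had a higher ratio than all 500 probe sets nearest to it in brightness. That was largely fixed by the choice of the pair for its high ratios, and nothing is read from it.

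**Figure D1:**
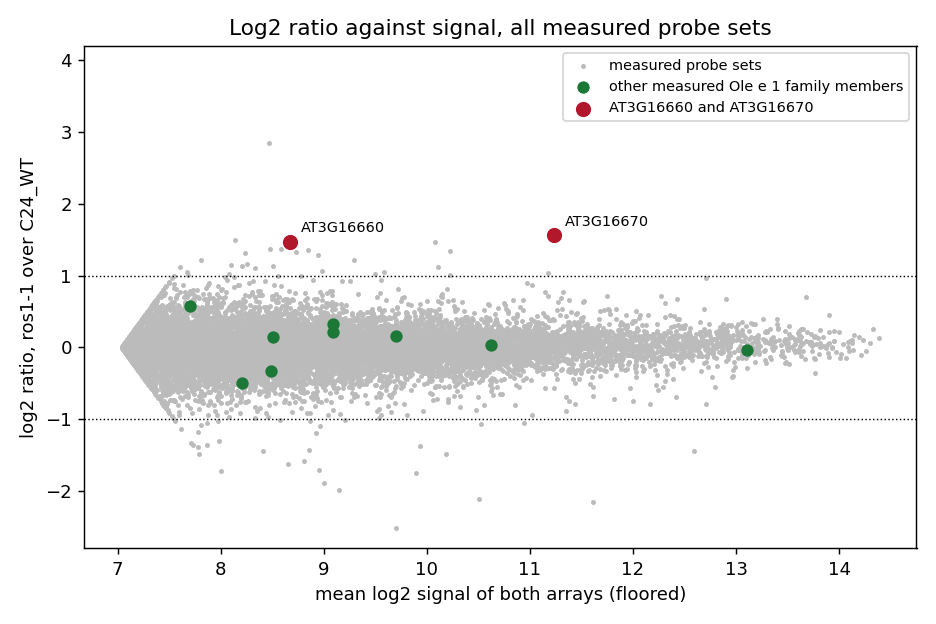
The log2 ratio of ros1-1 over C24_WT is plotted against the mean log2 signal of both arrays, with signals under the floor raised to it. Grey points are the 14126 measured probe sets, green points the 9 other measured Ole e 1 family members and red points the pair, and dotted lines mark 2-fold. AT3G16660 and AT3G16670 stand above 1 at quite different brightness, and the green points lie between -0.49 and 0.57.

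In gene order on chromosome 3, no protein-coding gene lies between AT3G16660 and AT3G16670 in the TAIR10.1 gene table, which lists 2 long non-coding RNA loci there. Neither of these loci had a named probe set. On the AT3G16670 side, the next gene, AT3G16680, had signals of 11.3 in ros1-1 and 18.3 in wild type, under the floor on both arrays, so no ratio is given for it. It is followed by SWEET16 (AT3G16690), which encodes a sugar transporter of the vacuole membrane. SWEET16 had signals of 150 in ros1-1 and 156 in wild type, a log2 ratio of -0.06, both just above the floor. On the AT3G16660 side, the directly adjacent gene AT3G16650 and the next one, TCTP, had no named probe set and were not analysed here. The nearest measured gene on that side was KINESIN-13A (AT3G16630), a motor protein that acts on microtubules, with signals of 1009 in ros1-1 and 1005 in wild type and a log2 ratio of 0.01.

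Both measured genes that flank the pair thus had nearly equal signals on the 2 arrays. The same held for AT3G16700, beyond SWEET16, with signals of 290 in ros1-1 and 274 in wild type. AT3G16740 and AT3G16760 were somewhat higher in ros1-1, with signals of 366 and 523 against 271 and 402 in wild type, log2 ratios of 0.43 and 0.38. AT3G16750, between them, had a log2 ratio of -0.30, at 136 in ros1-1 and 168 in wild type. Before KINESIN-13A, AT3G16560 had a log2 ratio of -0.11.

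The neighbour with the highest ratio was AT3G16530, a lectin-like gene that stands 3 measured genes before the pair. Its signals were 2971 in ros1-1 and 1813 in wild type, a log2 ratio of 0.71. The glycosyltransferase gene UGT88A1 and the jacalin lectin gene JAL34 had lower signals in ros1-1, with log2 ratios of -0.37 and -0.44. For JAL34 the signals were 4602 in ros1-1 and 6237 in wild type. Genes on this side of the pair therefore differed in both directions within a few places of each other in the order of measured genes. Many loci in between were not measured. Counted over all loci of the gene table from AT3G16660, AT3G16530 stood at -17, UGT88A1 at -19 and JAL34 at -27.

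**Figure D2:**
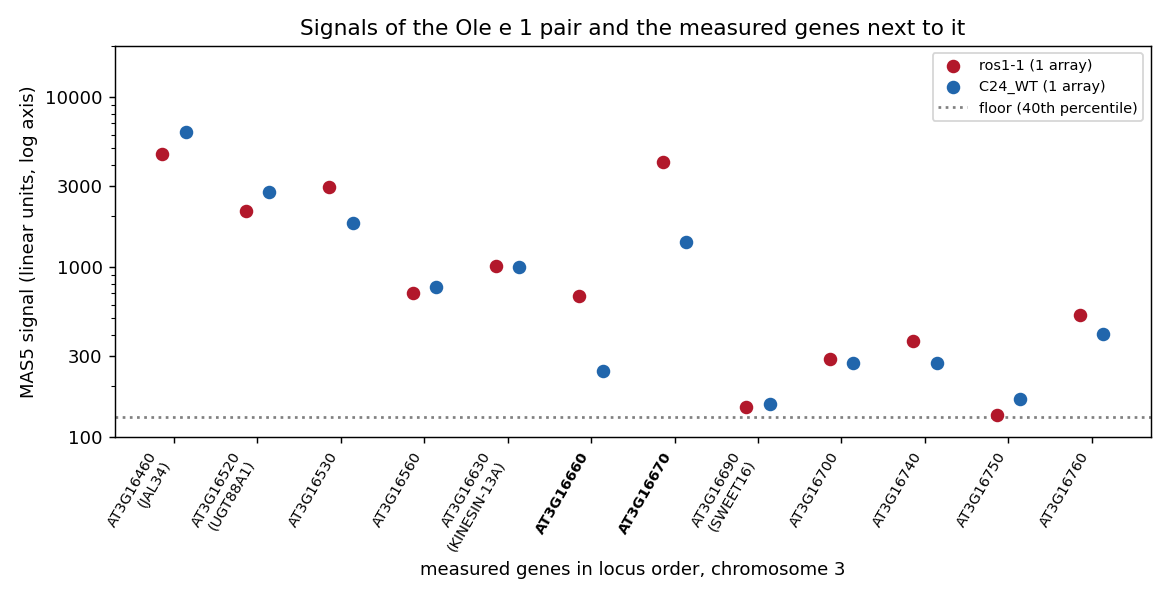
MAS5 signals on a log axis are shown for the pair, in bold, and for the 5 measured genes on each side in locus order, with ros1-1 in red left of C24_WT in blue, 1 array each, and the floor as a dotted line. The points of AT3G16660 and AT3G16670 are far apart, at 681 and 245 and at 4142 and 1399, while those of KINESIN-13A and SWEET16 nearly coincide.

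Over the 10 measured genes on each side, 0 of 20 were at least 2-fold higher or lower in ros1-1, a count near the background of 0.205% and 0.241% of all measured probe sets. Their log2 ratios had a median of -0.03 and ran from -0.45 to 0.71, with 10 above and 10 below 0. Counted over all loci of the gene table, these genes reached from -51 before AT3G16660 to 33 after AT3G16670. At a 1.5-fold limit, which 1.85% of measured probe sets reached in the higher and 1.95% in the lower direction, 1 of the 20 was higher, AT3G16530, and 0 were lower. Over 50 measured genes on each side, the median was -0.06 and 1 of 100 was at least 2-fold higher, AT3G15650, with a log2 ratio of 1.31, 35 measured genes before AT3G16660. The median over all measured genes was -0.01. Of the 12 named genes at least 2-fold higher in ros1-1, 4 lay on chromosome 3, which held 20.1% of the 7446 measured genes. The pair, chosen for its rise, made up 2 of these 4. With the pair left out, 2 of 1492 measured genes of chromosome 3 were at least 2-fold higher.

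**Figure D3:**
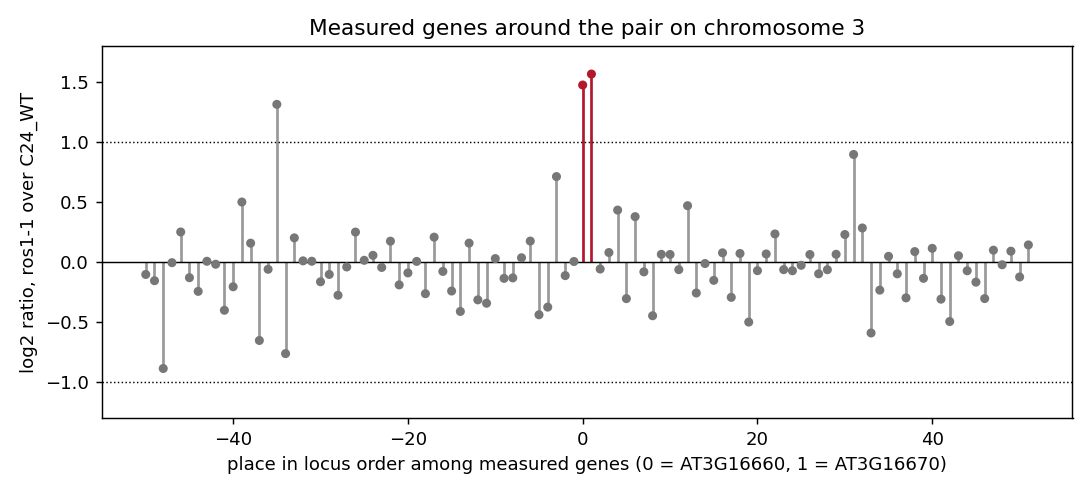
The log2 ratio of ros1-1 over C24_WT is drawn for the pair, in red, and the 50 measured genes on each side in grey, by their place in locus order among measured genes on chromosome 3, with dotted lines at 2-fold. The 2 red lines stand next to each other at 1.47 and 1.57, and 1 grey line, AT3G15650 at 1.31, also passes 1.

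Neighbouring genes with a shared change of this size were rare on these arrays. Among 2319 pairs of measured genes with no protein-coding gene between them, 1 had both genes at least 2-fold higher in ros1-1, or 0.0431%, and it was AT3G16660 and AT3G16670, which had been chosen for this. In 1 further pair, also 0.0431%, both genes were at least 2-fold lower, namely the cold-regulated COR15 genes AT2G42530 and AT2G42540, with log2 ratios of -1.03 and -1.10. Whether probe sets of neighbouring genes take signal from each other's transcripts was not tested for any pair. In 6 pairs exactly 1 gene was at least 2-fold higher. Across all 2319 pairs, the log2 ratios of the 2 genes correlated with r = 0.04, or 0.03 without the Ole e 1 pair, a description across gene pairs that share the same 2 arrays.

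Other members of the Ole e 1 family did not differ by 2-fold. Of 26 family genes on an unchecked, hand-written list, 14 had a probe set of their own, 11 were measured and 3 did not reach the floor on any array. With the pair left out, 0 of 9 measured members were at least 2-fold higher or lower, beside 0.205% and 0.241% of all measured probe sets. Their log2 ratios had a median of 0.14 and ran from -0.49 to 0.57, with 6 above and 3 below 0, and the median of all measured probe sets was -0.01.

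The highest of the 9 was AT3G26960, also on chromosome 3, with signals of 253 in ros1-1 and 170 in wild type, a log2 ratio of 0.57. Its wild-type signal was not far above the floor of 132. AT2G16630 followed with signals of 608 in ros1-1 and 485 in wild type, a log2 ratio of 0.33. These 2 values exceeded the probe set scatter of 0.19, which leaves out differences between plants, and stayed under 1.5-fold. Over all measured probe sets the log2 ratios had an SD of 0.27. AT5G41050, AT5G13140 and AT2G47540 had log2 ratios of 0.22, 0.16 and 0.14. The values of these last 3 genes were about as large as the scatter itself or smaller.

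SAH7 (AT4G08685) had nearly the same signal on both arrays, 1599 in ros1-1 and 1558 in wild type. AT1G78040 did too, at 8703 in ros1-1 and 8935 in wild type, a log2 ratio of -0.04. AT5G15780 and AT5G10130 had lower signals in ros1-1, with log2 ratios of -0.33 and -0.49. These also exceeded the scatter of 0.19 in size and stayed under 1.5-fold, beside the SD of 0.27 over all measured probe sets. For AT5G10130 the signals were 250 in ros1-1 and 352 in wild type. The family members therefore had no common direction on these arrays.

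AT1G29140, AT5G45880 and AT2G34700 did not reach the floor, with signals of 8.33, 10.9 and 82.1 in ros1-1 and 36.5, 20.0 and 46.6 in wild type, and are given no ratio. The other 12 listed genes, among them the proline-rich protein genes PRP1 and PRP2 and the arabinogalactan protein genes AGP30 and AGP31, had no single-gene probe set and were not analysed here.

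**Figure D4:**
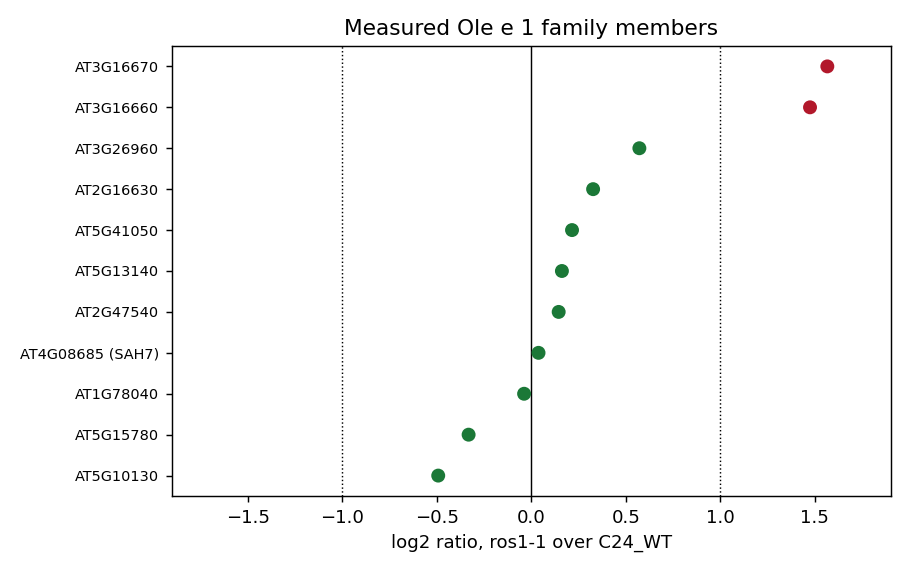
The log2 ratio of ros1-1 over C24_WT is shown for the 11 measured Ole e 1 family members, 1 probe set each, with the pair in red, the other members in green and dotted lines at 2-fold. AT3G16670 and AT3G16660 lie at 1.57 and 1.47, and the other 9 fall between -0.49 and 0.57.

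The genes nearest to each member in signal on both arrays were found by the Euclidean distance of their log2 signals over the 2 arrays, among 6951 other probe sets of named genes at or above the floor on both. For AT3G16660 these were AT3G05400 at a distance of 0.13, AT2G04050, a MATE efflux family gene, at 0.14 and AT1G80130 at 0.40. All 3 were at least 2-fold higher in ros1-1, which follows from the choice, since distance and ratio come from the same 2 signals. For AT3G16670 the nearest was AT3G16530 at 0.61, followed by AT1G47400 at 0.77 and CDI at 0.77. These had log2 ratios of 0.71, 0.63 and 0.64, all under that of AT3G16670. AT3G16670 was chosen for a high ratio, so this was largely fixed by the choice and nothing is read from it. The distance reads brightness as well as ratio and rests on 2 arrays.

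Markers of cell types were read beside the pair. The leaf genes RCA, the activase of Rubisco, and LHCB4.1, a light-harvesting protein, had signals of 17658 and 16264 in ros1-1 and 15226 and 18035 in wild type. The root gene PYK10, a beta-glucosidase of ER bodies, had 13729 in ros1-1 and 13028 in wild type. Transcripts of these marker genes were thus detected on both arrays. With a probe set of their own were 2 of 4 listed leaf markers and 1 of 2 listed root markers, so the root reading rests on PYK10 alone. The pollen marker AT59, a pectate lyase-like gene, had signals of 2.19 in ros1-1 and 3.0 in wild type, under the floor on both arrays. Of 8 listed pollen marker names, it was the 1 that matched a gene with a probe set of its own, and 0 of 5 floral organ marker names did.

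The root hair expansin genes EXPA18 and EXPA7, whose products loosen the cell wall, had log2 ratios of 0.51 and 0.33. EXPA18 had signals of 373 in ros1-1 and 262 in wild type. EXPA7 had 193 in ros1-1 and 154 in wild type, the second not far above the floor of 132. These 2 of 6 root hair markers had a probe set of their own, both were higher in ros1-1 and under 1.5-fold, and their part in the ratios of the pair was not tested.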

How the data were processed

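The authors deposited 1 linear intensity per probe set and array, and per the submitters' processing notes MAS5 was the tool. Its version, scaling target and presence calls are not given in these sources. Both arrays had a mean of 500.04 once 2% of values were trimmed from each end. Of 22810 probe sets, 64 controls were set aside. Names came from the platform annotation, in which 13513 probe sets had 1 gene, 503 several and 8730 none, and 13436 matched the TAIR10.1 gene table, which served for names and gene order only.

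Ratios are ros1-1 over C24_WT on the log2 scale, with values under the floor raised to it. A gene with several probe sets took its brightest. With 1 array per genotype no test was possible and no p-value is printed, and the number of arrays limits the precision. Named genes were the pair, the family members with a probe set, the 5 measured genes on each side, the 3 most alike in signal, those next in ratio and the markers. AT3G16680, AT3G16650, TCTP, AT3G15650, the family genes with no probe set and the other gene pairs were named outside this rule, after values were seen. APL3 and AT1G19200, the genes just inside and just outside the 2-fold limit, were also named outside this rule. The family was taken from a hand-written list that was not checked against a source, since the gene table has no descriptions. The promoter motif search that had been planned was not run, as no sequence was used here. Members, lists and rules were chosen with earlier results of these data known. The alternatives were floors at the 25th and 60th percentiles, an offset in place of the floor, median centring, quantile normalization, lowess (span 0.3) and limits of 1.5-fold and 3-fold. Computations used Python 3.11.15, numpy 2.4.6, pandas 2.3.3 and statsmodels 0.14.6, and were tested on simulated data.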

Additional observations from a re-analysis of the deposited data

How the results depend on the processing

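The log2 ratio of AT3G16670 lay between 1.48 and 1.59 under all 6 alternatives of floor and scale. That of AT3G16660 lay between 1.47 and 1.496 under the lower floor and the 3 rescalings, but was 1.07 under a floor at the 60th percentile, a signal of 325 that lies above its wild-type signal, and 1.11 when the floor was added to both signals as an offset; both settings shrink ratios of dim probe sets by construction, and the first gives a bound. Both genes stayed at least 2-fold higher in all 6, and at the 3-fold limit 0 family members remained. The counts of 0 neighbours at least 2-fold higher and 0 family members lower held in all 6, and at the 1.5-fold limit 1 neighbour was higher. Over all probe sets, the counts at least 2-fold higher and lower in ros1-1 were 80 and 99 under the lower floor, 15 and 19 under the higher one, 12 and 20 with the offset, and 32 and 32 with each rescaling. At limits of 1.5-fold and 3-fold they were 261 and 276, and 1 and 10. No paired analysis was possible because each genotype had 1 array. Low signal limits AT3G16660 more than AT3G16670.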

Other observations

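Besides AT3G16660 and AT3G16670, 2 pairs of measured genes with no protein-coding gene between them were both at least 1.5-fold higher in ros1-1. AT4G33720 and AT4G33730, which encode secreted proteins of the CAP family related to pathogenesis-related protein PR1, had log2 ratios of 0.68 and 0.65. AT5G63130 and AT5G63135 had 0.90 and 0.70. Besides the COR15 genes, both genes were at least 1.5-fold lower in 1 pair, the receptor-like kinase genes AT1G51830 and AT1G51840, at -0.68 and -0.75. In 1 pair the genes passed 1.5-fold in opposite directions. These are values of 1 array per genotype among 2319 such pairs, with no test. Signal shared between the probe sets of a pair was not tested either, so the 2 values of a pair may not be separate readings.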
